A study of Saccharomyces cerevisiae with 6 samples.

Results

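The nucleolar ribosome assembly factors of Saccharomyces cerevisiae were taken as the open reading frames (ORFs) whose standard symbol is UTP, NOP, NOC, NSA or RRP followed directly by a number. This rule found 58 of the 6174 measured ORFs, namely 18 UTP, 17 NOP, 3 NOC, 2 NSA and 18 RRP genes. It uses names alone, so 7 subunits or partners of the nuclear exosome that carry an RRP name are among the 58. The study asked how transcript levels change when frataxin, the mitochondrial protein encoded by YFH1 that serves iron-sulfur cluster assembly, is switched off. The group tested was strain tetYFH1 (BQS201, W303-1A carrying tetO7-YFH1::kanMX4), whose YFH1 promoter is shut by doxycycline, and its control was the parent strain W303-1A without that allele, here W303. Both strains grew in the glycerol medium YPG, and each two-colour array set cells given 2 µg/ml doxycycline for 10 h against their own strain without the drug. As titled, the untreated cells were those at 0 h, so drug and elapsed time cannot be told apart within either strain. Strain tetYFH1 had 4 arrays in 2 dye-swap pairs, A (A1, A2) and B (B1, B2), and W303 had 2 arrays in 1 pair. Whether the pairs came from separate cultures is not labelled, and p-values therefore reflect sample-to-sample spread that may be technical.

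Ribosome assembly begins in the nucleolus on the RNA that RNA polymerase I transcribes. The small-subunit processome, to which the UTP proteins belong, forms on the growing transcript together with the U3 small nucleolar ribonucleoprotein (snoRNP), and helicases, methyltransferases and scaffold proteins then shape the precursors of both subunits while the exosome trims them and destroys by-products. In budding yeast the genes for these factors are known to be transcribed together, high in fast growth and low under stress.

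Every value below is the authors' log2 ratio of treated over untreated cells, so that 1 stands for a doubling and 0 for no difference. YFH1 itself was at -2.64 (A1), -3.29 (A2), -5.38 (B1) and -5.11 (B2) in tetYFH1, against -0.08 and -0.05 in W303, which checks the tetYFH1 labels, while the direction of the W303 ratios rests on the labels alone. Values spread more widely on the pair B arrays, with a standard deviation over ORFs of 0.744 (B1) and 0.654 (B2), against 0.392 to 0.459 on the other 4 arrays. Exactly whole log2 values made up 42.2% of B1 and 24.7% of B2, and 28 of the 58 assembly factors carried at least 1 such value there. A ratio from bulk RNA does not tell fewer cells with a transcript from less RNA per cell, and it gives no level of one gene against another.

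Most pair means of the assembly factors lay below 0 in tetYFH1 pair A and in W303, and above 0 in tetYFH1 pair B. In tetYFH1 pair A 48 of 58 pair means (82.8%) lay below 0, beside 43.8% of all ORFs. In tetYFH1 pair B 48 (82.8%) lay above 0 with 7 (12.1%) below, beside 60.2% and 33.4% of ORFs. In W303 52 (89.7%) lay below 0, beside 42.9%. Within pair B the arrays differed: 28 of the 58 were above 0 on B1, with 16 below and 14 at 0, against 50 above on B2. Over all ORFs 34.7% were above 0 on B1 and 61.3% on B2. The median ratio of the 58 genes was -0.14 in pair A, 0.43 in pair B and -0.53 in W303, beside medians over all ORFs of 0.04, 0.13 and 0.05. By array the medians were -0.16 (A1), -0.14 (A2), 0.00 (B1) and 0.73 (B2) in tetYFH1, against -0.42 and -0.66 in W303. The median tetYFH1 mean of this group was 0.15 over both pairs, beside 0.11 over all ORFs, and -0.14 in pair A alone. Its sign therefore rests on pair B, and there on array B2: it was -0.05 without B2 and 0.32 without B1.

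**Figure D1:**
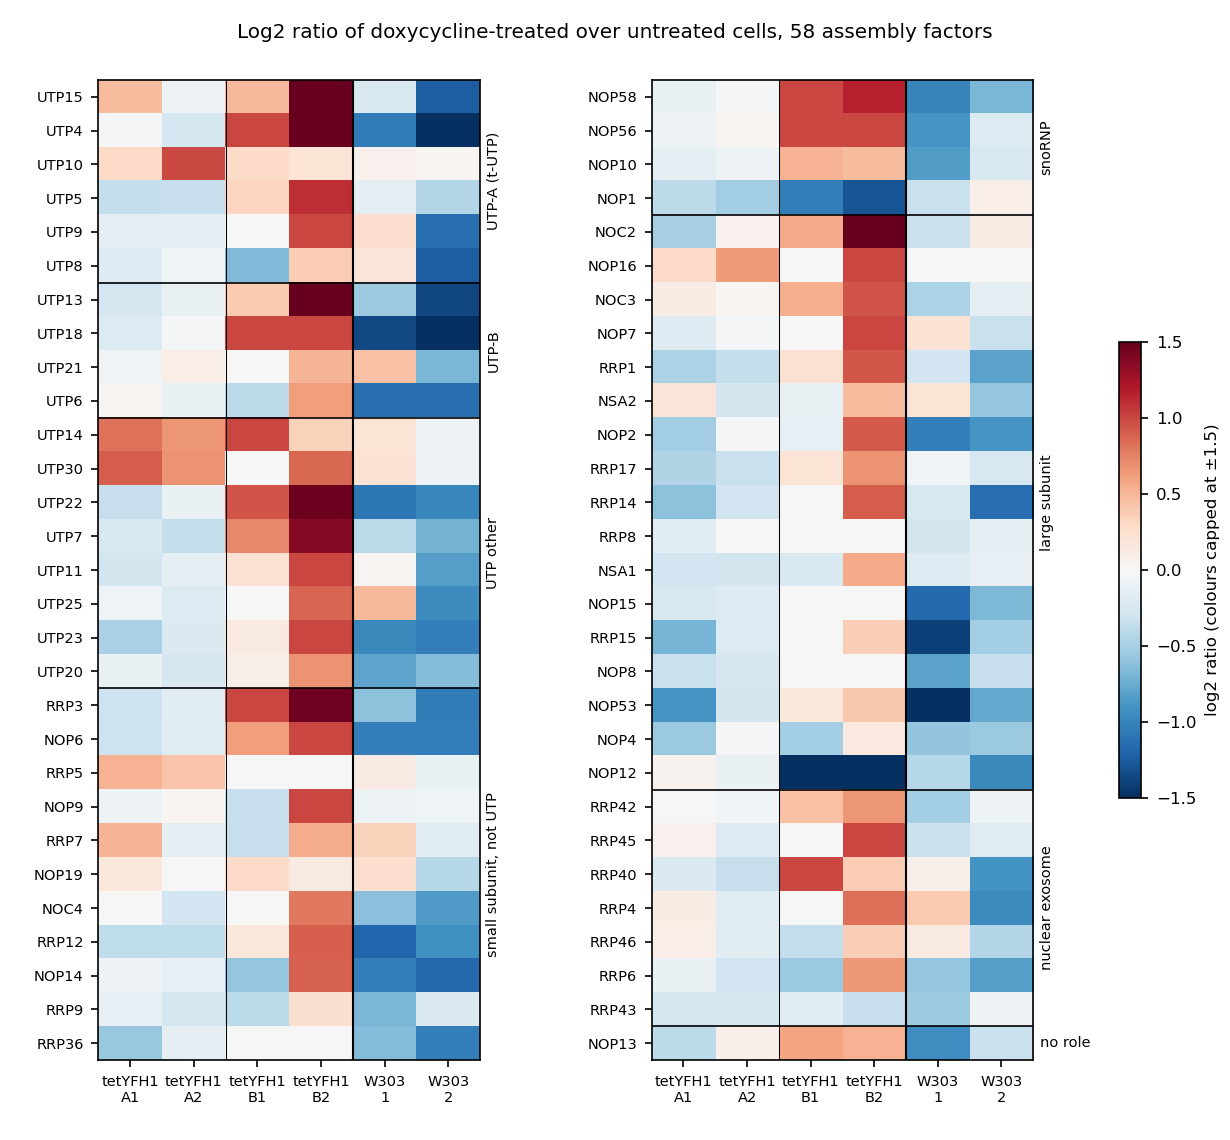
Log2 ratio of treated over untreated cells for each of the 58 assembly factors (rows, grouped by role) on each of the 6 arrays (columns), with red above 0 and blue below 0 and colours capped at 1.5 in either direction. Most rows are pale or blue on A1 and A2, red on B2 and blue on the W303 arrays, while NOP1 and NOP12 are blue on both pair B arrays.

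No assembly factor passed an adjusted p of 0.05 (limma on the pair means, two-sided, Benjamini-Hochberg over 6174 ORFs) in tetYFH1, in W303 or in the difference between the strains. Over all ORFs 25 (0.405%) passed in tetYFH1, and the share that passed was 0% in W303 and 0% for the difference. The smallest adjusted p among the 58 was 0.444 in tetYFH1, 0.999 in W303 and 0.782 for the difference. The counts at an unadjusted p under 0.05 therefore describe where the group lies and are not calls. In tetYFH1 3 of 58 factors (5.17%) were higher at that level, beside 5.83% of all ORFs, and 2 (3.45%) were lower, beside 3.63%, so both shares were near the background. In W303 none was higher, beside 0.988% of ORFs, and 12 (20.7%) were lower, beside 1.64%. For the difference, 11 factors (19.0%) were higher in tetYFH1 than in W303, beside 3.79% of ORFs, and none was lower, beside 2.54%.

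Counts over single arrays gave the same picture without a model. Both W303 arrays lay below 0 for 39 of 58 factors (67.2%), beside 21.9% of all ORFs, and above 0 for 2 (3.45%), NOP16 and UTP10, beside 30.1%. Both pair B arrays lay above both pair A arrays for 35 factors (60.3%), beside 26.2% of ORFs, and below them for 4 (6.90%), NOP1, NOP12, RRP5 and UTP10, beside 18.8%. All 4 tetYFH1 arrays lay above both W303 arrays for 26 factors (44.8%), beside 13.3%, and below them for NOP1 alone (1.72%), beside 9.31%. These 2 counts depend on the labelled direction of W303: with the W303 ratios turned to untreated over treated they were 3 (5.17%, beside 14.01% of ORFs) and 15 (25.9%, beside 6.75%). A single sign on all 4 tetYFH1 arrays was uncommon: UTP10, UTP14 and NOC3 were above 0 on each (5.17%, beside 11.5% of ORFs), and NOP1 and RRP43 were below 0 on each (3.45%, beside 6.75%). Ratios below 0 on every pair A and W303 array and above 0 on both pair B arrays were found for 16 factors (27.6%), beside 2.7% of ORFs. Of the 58 genes, RRP15 and NOC4 were the only 2 that stand side by side in the gene table.

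UTP-A, also called t-UTP, is the processome module that joins the transcript first. Its 6 genes among the 58, UTP4, UTP5, UTP8, UTP9, UTP10 and UTP15, had medians of -0.13 in pair A, 0.61 in pair B and -0.48 in W303. NAN1, also of this module, carries another name and is not counted here. UTP15 had the highest tetYFH1 mean of all 58 genes. Its ratios were 0.47 (A1), -0.09 (A2), 0.49 (B1) and 2.85 (B2) in tetYFH1, against -0.23 and -1.23 in W303. Array B2 thus stood far above the other 3 tetYFH1 arrays, which lay above both W303 arrays. The tetYFH1 mean was 0.93 ± 1.04 (SD, n = 2 pairs, adjusted p = 0.501 in limma), it was 0.34 without B2, and the difference from W303 was 1.66 with a standard error of 0.596 (adjusted p = 0.784).

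UTP4, a WD-repeat protein of the same module, stood at -0.02 (A1), -0.26 (A2), 1.00 (B1) and 1.51 (B2) in tetYFH1, against -1.05 and -1.87 in W303. The 4 tetYFH1 arrays all lay above both W303 arrays, with pair A near 0 and pair B higher. UTP4 had the largest strain difference of the 58 factors, 2.02 with a standard error of 0.577 (95% interval 0.68 to 3.36, adjusted p = 0.784), and its W303 mean of -1.46 was the lowest. With W303 turned the difference was -0.90, and UTP14 was then highest at 0.77. UTP8, which also takes part in nuclear export of tRNA, was the lowest UTP-A member in tetYFH1, with -0.19 (A1), -0.07 (A2), -0.66 (B1) and 0.38 (B2), against 0.19 and -1.24 in W303. The groups overlapped for UTP8, and its tetYFH1 mean was -0.13. UTP10, a long helical-repeat protein picked after its values were seen, was above 0 on all 6 arrays, with 0.29 (A1), 0.99 (A2), 0.29 (B1) and 0.21 (B2) in tetYFH1, against 0.06 and 0.03 in W303.

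UTP-B, a scaffold built largely of WD-repeat proteins, had 4 genes among the 58, since its members PWP2 and DIP2 carry other names. The medians of the 4 were -0.07 in pair A, 0.63 in pair B and -1.04 in W303, the lowest W303 median of the 7 role groups. UTP18, which carries a motif that recruits the exosome's helicase, was at -0.21 (A1), -0.03 (A2), 1.00 (B1) and 1.00 (B2) in tetYFH1, against -1.35 and -1.51 in W303. UTP13 was at -0.25 (A1), -0.11 (A2), 0.39 (B1) and 2.32 (B2) in tetYFH1, against -0.55 and -1.36 in W303. For both genes pair A was just below 0, pair B above it and W303 below all 4 tetYFH1 arrays. The strain difference was 1.87 for UTP18 (standard error 0.514, adjusted p = 0.782 in limma) and 1.54 for UTP13 (95% interval 0.12 to 2.96, not adjusted over ORFs). UTP6 was at 0.04 (A1), -0.10 (A2), -0.39 (B1) and 0.63 (B2) in tetYFH1, against -1.13 and -1.14 in W303. Its tetYFH1 mean was thus close to 0, at 0.05, and the difference of 1.18 came from W303.

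The other 8 UTP genes encode processome proteins outside those modules, and their medians were -0.19 in pair A, 0.59 in pair B and -0.47 in W303. UTP14, which activates the processome helicase Dhr1, was at 0.81 (A1), 0.66 (A2), 1.00 (B1) and 0.34 (B2) in tetYFH1, against 0.20 and -0.08 in W303. UTP30, a protein with an L1 domain that cells can grow without, was at 0.90 (A1), 0.68 (A2), 0.00 (B1) and 0.86 (B2) in tetYFH1, against 0.22 and -0.08 in W303. UTP14 was the one gene of this pair whose 4 tetYFH1 arrays all lay above both W303 arrays, since B1 of UTP30 was exactly 0. The tetYFH1 mean was 0.70 ± 0.05 for UTP14 and 0.61 ± 0.25 for UTP30 (SD, n = 2 pairs, adjusted p = 0.444 and 0.501 in limma), or 1.63-fold and 1.53-fold. Unlike the median of the 58 factors, both genes were well above 0 in pair A. With pair B left out and the pair A and W303 arrays entered singly, UTP14 had a mean of 0.74 with an adjusted p of 0.0333 in limma, and UTP30 one of 0.79 with an adjusted p of 0.0206. In that fit the spread is that within dye-swap pairs, whose arrays may share RNA, so it holds no spread between replicates. UTP30 and UTP14 were also the 2 highest of the 58 factors in the pair kept. They were the only 2 of the 58 that passed as higher there, beside 3.05% of all ORFs.

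UTP20, a large scaffold protein, was the lowest of these 8 in tetYFH1, with -0.10 (A1), -0.25 (A2), 0.09 (B1) and 0.67 (B2), against -0.79 and -0.65 in W303. All 4 tetYFH1 arrays lay above both W303 arrays, although the tetYFH1 mean was only 0.10. UTP22, which forms the UTP-C complex with RRP7 and casein kinase, is given after its values were seen. It stood at -0.35 (A1), -0.10 (A2), 0.95 (B1) and 1.47 (B2) in tetYFH1, against -1.08 and -0.98 in W303. Its partner RRP7 did not share this course: it was at 0.51 (A1), -0.14 (A2), -0.35 (B1) and 0.56 (B2) in tetYFH1, against 0.34 and -0.16 in W303. The arrays of the strains overlapped for RRP7, and its W303 mean of 0.09 was the highest of the 58.

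The UTP genes were set beside the 40 other assembly factors on each of the 6 arrays. In tetYFH1 the UTP median exceeded that of the other classes by 0.06 on both pair A arrays, by 0.25 on B1 and by 0.39 on B2. In W303 the difference was 0.30 on array 1 and -0.53 on array 2, so the classes were ordered differently on the arrays of a single dye-swap pair. By pair, the UTP median minus that of the other classes was 0.04 in pair A, 0.23 in pair B and -0.04 in W303, and 0.21 over both tetYFH1 pairs. The UTP median thus stood above that of the 40 other factors on all 4 tetYFH1 arrays. Its margin was smaller in pair A than in pair B. This was not so for each class: the 3 NOC genes had medians of -0.001 (A1), 0.03 (A2), 0.54 (B1) and 0.95 (B2). The UTP medians were -0.12 (A1), -0.10 (A2), 0.25 (B1) and 1.00 (B2), so the NOC median was higher except on B2. The NSA median was also above the UTP median on A1 and the NOP median on A2, while the RRP median was below it on each array. Older UTP symbols counted as UTP take in NOP14 and NOC4 among others. With them the UTP median minus that of the other factors was 0.14 over both tetYFH1 pairs and -0.20 in W303. Without the ORFs that had whole values on B1 or B2 it was 0.32 in tetYFH1 and -0.41 in W303. The UTP median itself was -0.14 in pair A, 0.59 in pair B and -0.54 in W303, beside -0.18, 0.36 and -0.50 for the other 40 factors.

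**Figure D2:**
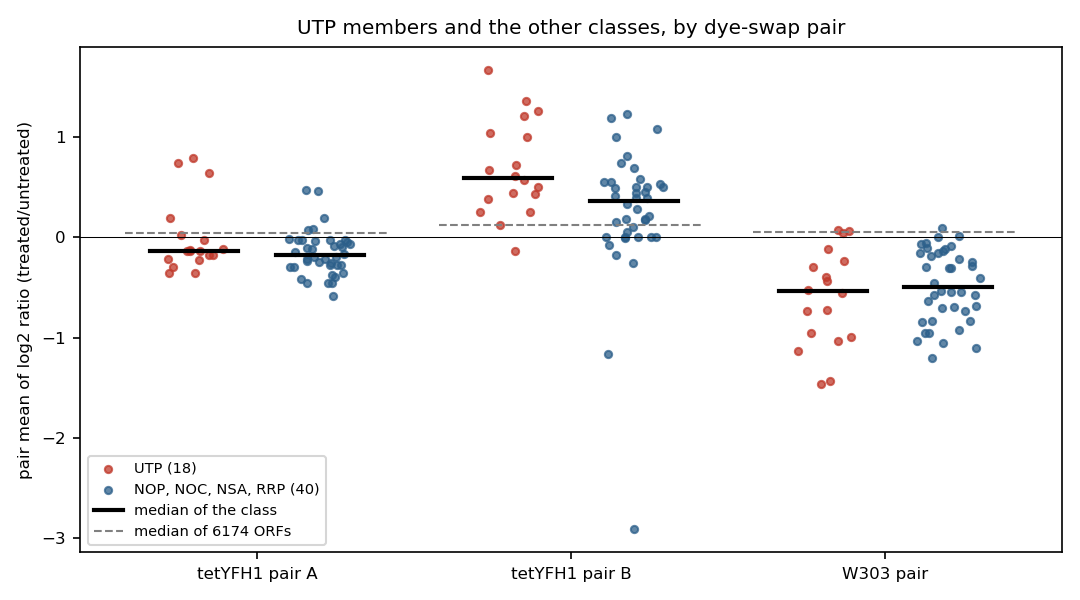
Pair mean of the log2 ratio for the 18 UTP genes (red) and the 40 NOP, NOC, NSA and RRP genes (blue) in tetYFH1 pair A, tetYFH1 pair B and the W303 pair, with one point per gene, black bars at class medians and dashed lines at the median of 6174 ORFs. The classes overlap in each pair, and the UTP median is 0.23 above that of the other classes in pair B.

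Counts of UTP genes ran the same way. All 18 had a higher tetYFH1 mean than W303 mean, and so had 38 of the other 40, beside 57.1% of ORFs. With W303 turned these were 5 and 8. All 4 tetYFH1 arrays lay above both W303 arrays for 11 UTP genes (61.1%) and for 15 other factors (37.5%), beside 13.3% of ORFs. The full course of pair A and W303 below 0 with pair B above 0 was shown by 8 UTP genes (44.4%) and 8 others (20%), beside 2.7% of ORFs. Both W303 arrays were below 0 for 10 UTP genes (55.6%) and for 29 others (72.5%), beside 21.9% of ORFs. Here the 40 other factors had the larger share. On B2 all 18 UTP ratios were above 0, beside 61.3% of ORFs, and on W303 array 2 17 were below 0, beside 47.85%. The members were chosen with these data already known, so no test was made of the classes against each other.

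The 11 small-subunit factors without a UTP name had medians of -0.14 in pair A, 0.21 in pair B and -0.74 in W303. RRP3, a DEAD-box helicase for maturation of the small-subunit RNA, had the highest tetYFH1 mean among them. It was at -0.31 (A1), -0.16 (A2), 1.00 (B1) and 1.46 (B2) in tetYFH1, against -0.62 and -1.04 in W303. RRP36, which acts in early cleavage of the precursor, was lowest, with -0.57 (A1), -0.15 (A2), -0.01 (B1) and 0.00 (B2) in tetYFH1, against -0.65 and -1.02 in W303. Both genes lay above their W303 values on all 4 tetYFH1 arrays, RRP3 by a mean of 1.33 and RRP36 by 0.65. The tetYFH1 mean was 0.50 ± 1.04 for RRP3 and -0.18 ± 0.25 for RRP36 (SD, n = 2 pairs).

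RRP5, a factor needed for both subunits, ran against the group. It was at 0.52 (A1), 0.43 (A2), 0.00 (B1) and 0.00 (B2) in tetYFH1, against 0.12 and -0.10 in W303. It was thus highest in pair A, and both pair B values were whole numbers. NOP14 and NOC4, which bind each other in the processome and were picked after their values were seen, both lay lower in W303 than in tetYFH1. NOP14 had pair means of -0.10 in pair A and 0.15 in pair B, against -1.10 in W303, and NOC4 had -0.14 in pair A and 0.39 in pair B, against -0.74 in W303.

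The snoRNP proteins guide chemical modification of ribosomal RNA, and those of the box C/D type also form the core of the U3 particle. Of the 3 box C/D proteins among the 58, NOP56 was at -0.08 (A1), 0.05 (A2), 1.00 (B1) and 1.00 (B2) in tetYFH1, against -0.89 and -0.21 in W303. NOP58 was at -0.11 (A1), -0.02 (A2), 1.00 (B1) and 1.16 (B2) in tetYFH1, against -1.0 and -0.69 in W303. These sister proteins were alike in tetYFH1, near 0 in pair A and at or just above 1 in pair B, and both were below 0 in W303, NOP56 less so on array 2. In pair B 3 of their 4 values were the whole number 1.

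NOP1, the fibrillarin methyltransferase that sits in the same particle, stood in the opposite direction. It was at -0.39 (A1), -0.52 (A2), -1.03 (B1) and -1.29 (B2) in tetYFH1, against -0.34 and 0.10 in W303. It lay below 0 on all 4 tetYFH1 arrays and lower in pair B than in pair A. The tetYFH1 mean was -0.81 ± 0.50 (SD, n = 2 pairs, adjusted p = 0.448 in limma). It stayed between -0.88 and -0.75 when any 1 array was left out, but was -1.16 without pair A and -0.46 without pair B. The difference from W303 was -0.69 (95% interval -1.71 to 0.32, not adjusted over ORFs), against 1.04 for NOP56 and 1.35 for NOP58. NOP10, of the H/ACA particles, followed the group with -0.11 in pair A and 0.49 in pair B, against -0.54 in W303.

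The 17 large-subunit factors had medians of -0.28 in pair A, 0.28 in pair B and -0.55 in W303, and a median of 0.00 over the tetYFH1 means. Both W303 arrays were below 0 for 13 of the 17, beside 21.9% of ORFs, and all 4 tetYFH1 arrays exceeded both W303 arrays for 4, beside 13.3%. NOC2, which carries precursor particles through the nucleus with MAK21 and NOC3, was highest in tetYFH1. It was at -0.50 (A1), 0.06 (A2), 0.57 (B1) and 1.80 (B2) in tetYFH1, against -0.32 and 0.11 in W303. Only pair B stood clear of the W303 arrays, and the mean was 0.48 ± 0.99 (SD, n = 2 pairs).

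NOP12, an RNA-binding protein of the early large-subunit particle, had the lowest tetYFH1 mean of the 58 factors. It was at 0.06 (A1), -0.10 (A2), -2.83 (B1) and -3.00 (B2) in tetYFH1, against -0.43 and -0.97 in W303. Pair A was near 0 while pair B lay far below every other assembly factor on B1 and B2. The mean of -1.47 ± 2.04 (SD, n = 2 pairs, adjusted p = 0.501 in limma) therefore describes neither pair. With pair A left out and the arrays entered singly, the mean was -2.91 with an adjusted p of 0.00345, where the spread is again that within pairs and NOP12 is the extreme of the pair kept. NOP13, which resembles NOP12 in sequence and to which no subunit was assigned, did not share this course: it was at -0.40 (A1), 0.07 (A2), 0.59 (B1) and 0.52 (B2) in tetYFH1, against -0.94 and -0.33 in W303. NOP53, which recruits the exosome's helicase to large-subunit precursors and was picked after its values were seen, had the lowest W303 mean outside the UTP genes, -1.20, with pair means of -0.58 in pair A and 0.28 in pair B.

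The nuclear exosome, a ring of RNase-like proteins with attached nucleases, is a processing machine more than an assembly factor. Its 7 RRP-named genes had medians of -0.07 in pair A, 0.41 in pair B and -0.29 in W303, and none of them had an unadjusted p under 0.05 in W303 or in the difference. The ring subunits RRP42 and RRP43 marked its extremes. RRP42 was at 0.00 (A1), -0.05 (A2), 0.43 (B1) and 0.67 (B2) in tetYFH1, against -0.51 and -0.07 in W303. RRP43 was at -0.25 (A1), -0.27 (A2), -0.17 (B1) and -0.35 (B2) in tetYFH1, against -0.54 and -0.08 in W303. All tetYFH1 values of RRP42 thus exceeded those in W303, whereas RRP43 was below 0 on all 6 arrays, with overlapping strains and a difference of 0.05.

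The difference between the strains asks what doxycycline and time did in tetYFH1 beyond what they did in W303. The tetYFH1 mean exceeded the W303 mean for 56 of 58 factors (96.6%), beside 57.1% of ORFs, with NOP1 and NOP12 on the other side. The median difference was 0.62, beside 0.07 over all ORFs. The 11 factors higher in tetYFH1 at an unadjusted p under 0.05 were UTP4, UTP6, UTP13, UTP15, UTP18, UTP22, NOP2, NOP6, NOP14, NOP58 and RRP12. Since W303 had 1 pair, the spread behind every interval came from the 2 tetYFH1 pairs, and the direction of W303 rests on its labels. With the W303 ratios turned, the tetYFH1 mean was the higher one for 13 of 58 factors, beside 3907 of 6174 ORFs. The median difference was then -0.34, beside 0.13 over all ORFs. None of the 58 was then higher in tetYFH1 at an unadjusted p under 0.05, beside 2.02% of ORFs.

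**Figure D3:**
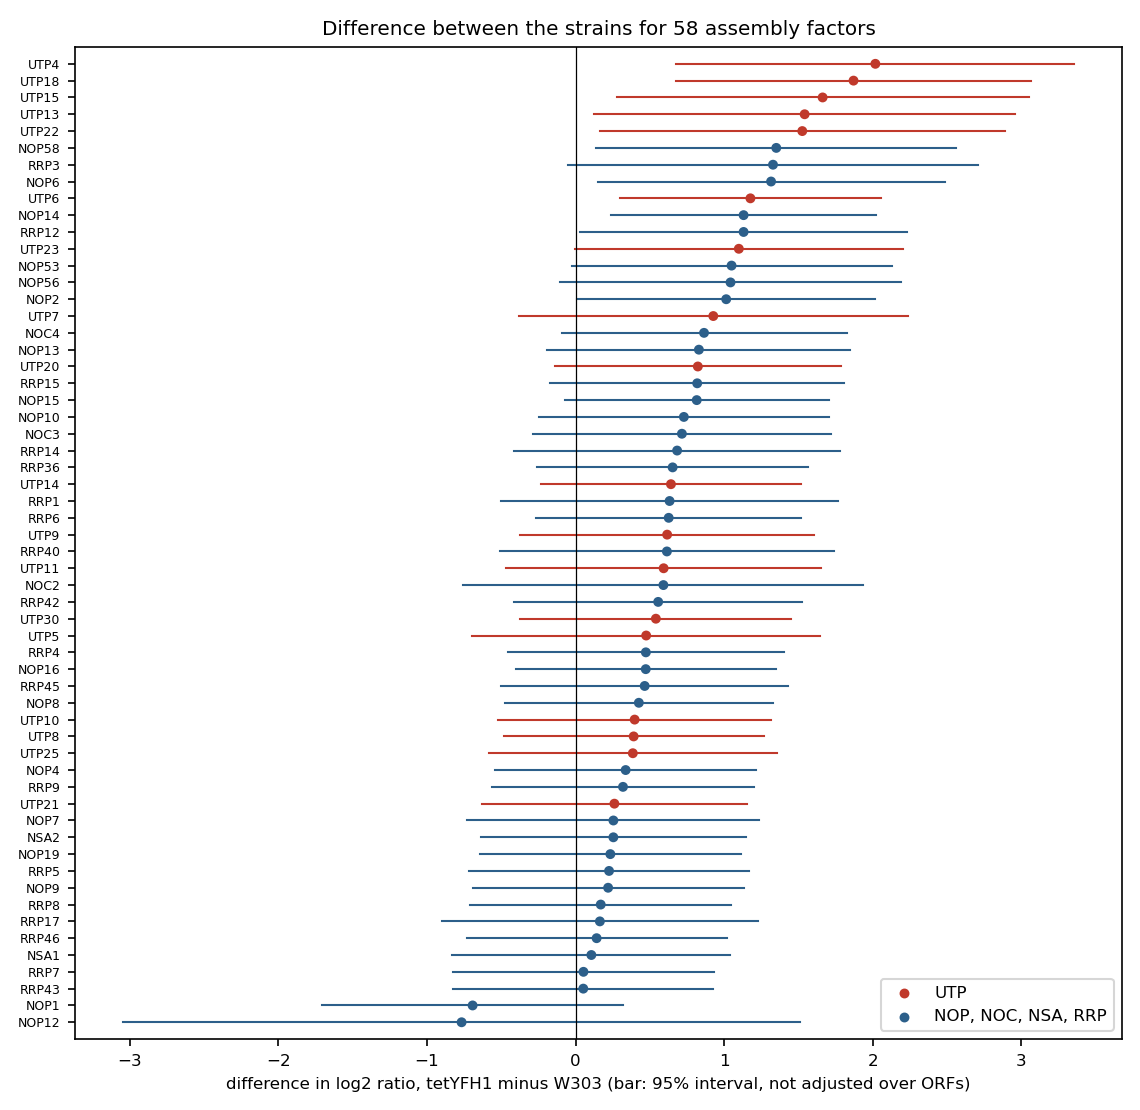
Difference in log2 ratio, tetYFH1 minus W303, for each of the 58 assembly factors, ordered by size, with 95% intervals from the limma fit that are not adjusted over ORFs (UTP red, other classes blue). With W303 taken as labelled, UTP genes hold the 5 largest differences and NOP1 and NOP12 alone lie below 0. With W303 turned (not drawn), 45 of the 58 are below 0, UTP4, UTP13, UTP18 and UTP22 among them.

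The pairs of strain tetYFH1 were set apart in the same way. The pair B mean exceeded the pair A mean for 49 of 58 factors (84.5%), beside 57.3% of ORFs. The median difference was 0.57, beside 0.08 over all ORFs. The largest differences were those of UTP13, UTP15 and RRP3, whose values are given above, and the smallest were those of NOP12, NOP1 and RRP5. Over the 58 factors, Pearson's r was 0.61 between A1 and A2, 0.69 between B1 and B2 (0.49 without NOP12) and 0.31 between the W303 arrays. Between pair A and pair B arrays r lay between -0.01 and 0.13, although both pairs carry the same strain and treatment labels. These are descriptions across genes, which are not independent replicates, and arrays of a pair may share RNA. Among the 30 factors with no whole number on B1 or B2 the median was -0.18 in pair A, 0.33 in pair B and -0.53 in W303. The pair medians of these 30 thus had the same signs as those of all 58. On B1 17 of the 30 were above 0 and 13 below. The cause of the whole values was not tested.

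Genes of the same pathways under other names were counted beside the members, and none of them passed an adjusted p of 0.05 in tetYFH1, in W303 or in the difference. The 34 other processome genes had medians of -0.16 in pair A, 0.50 in pair B and -0.49 in W303. Of these genes 23 were below 0 on both W303 arrays, beside 21.9% of ORFs. Their tetYFH1 means ran between those of PWP2 (0.69 ± 1.03), a UTP-B protein, and SAS10 (-0.49 ± 0.13), a processome protein (SD, n = 2 pairs each). The 46 other large-subunit factors had medians of -0.20 in pair A, 0.50 in pair B and -0.70 in W303, with 32 below 0 on both W303 arrays, and ran between the helicases DBP10 (0.76 ± 1.70) and DBP7 (-0.35 ± 0.07). Both lists thus had the course of the 58 named factors.

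The W303 medians of the snoRNP, exosome, RNA polymerase I and regulator lists lay closer to 0 than those of the processome and large-subunit lists. The 12 other snoRNP genes had medians of -0.06 in pair A, 0.44 in pair B and -0.16 in W303, between SNU13 (1.03 ± 1.20), the shared binding protein of the box C/D particle, and BCD1 (-0.13 ± 0.35), an assembly factor for it. The 7 other exosome genes had 0.21 in pair A, 0.37 in pair B and -0.12 in W303, between LRP1 (0.57 ± 0.73) and MPP6 (0.03 ± 0.62), both cofactors of the nuclear form. The 17 genes of RNA polymerase I and its initiation factors had -0.03 in pair A, 0.35 in pair B and -0.09 in W303, between the subunit RPA12 (0.57 ± 0.44) and the initiation factor RRN5 (-0.20 ± 0.09). The 12 regulators of ribosome genes had medians of -0.07 in pair A, 0.00 in pair B and -0.07 in W303, between FHL1 (0.32 ± 0.25), which binds ribosomal protein promoters, and CRF1 (-1.26 ± 0.81), a corepressor at those promoters. CRF1 was at -1.80 (A1), -1.87 (A2), -0.69 (B1) and -0.69 (B2) in tetYFH1, against -0.28 and 0.78 in W303, with an adjusted p of 0.284 in tetYFH1.

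The genes of the cytosolic ribosomal proteins are those whose products the assembly factors handle. The medians of these 127 genes by array were 0.23 (A1), 0.17 (A2), 1.13 (B1) and 0.99 (B2) in tetYFH1, against -0.75 and -0.24 in W303. In pair A the median of the 58 assembly factors was -0.14, against 0.20 for the ribosomal proteins, while in pair B and in W303 both medians had one sign. At an unadjusted p under 0.05 in tetYFH1, 3 of the 58 assembly factors were higher and 2 lower, against 65 higher and none lower among the 127 ribosomal protein genes, beside 5.83% higher and 3.63% lower over all ORFs. The assembly factors thus lay near that background. The tetYFH1 means of the ribosomal protein genes ran between RPS22A (1.17 ± 1.02) and RPS14A (-0.07 ± 0.24), both proteins of the small subunit (SD, n = 2 pairs each).

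**Figure D4:**
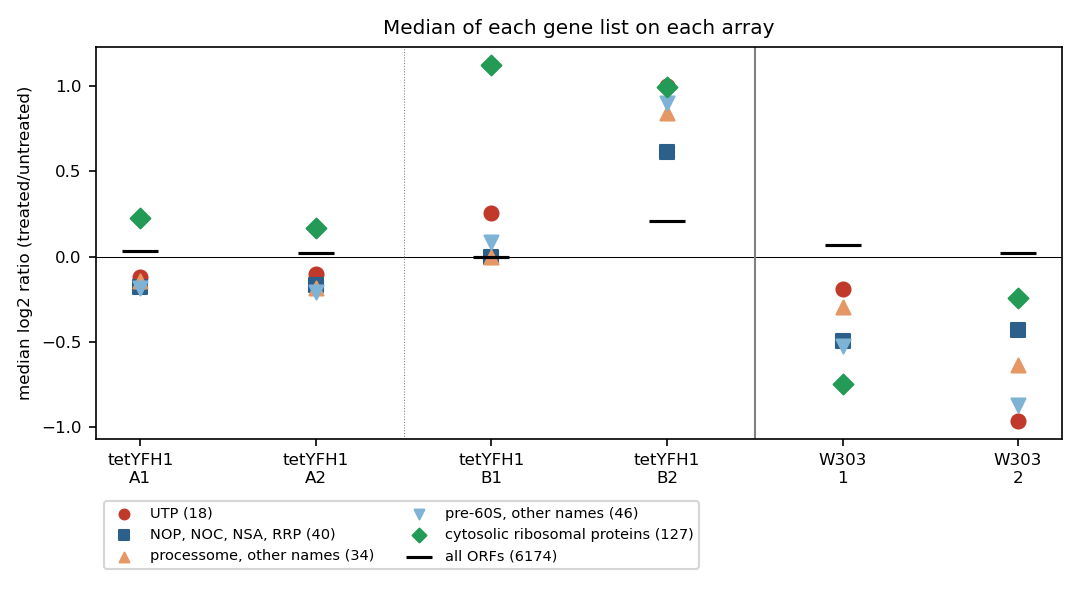
Median log2 ratio on each of the 6 arrays for the UTP genes, the other assembly factors, processome and large-subunit factors under other names, cytosolic ribosomal proteins and all ORFs. On A1 and A2 the ribosomal proteins are above 0 and the assembly factors below it, on B2 all lists are above the median of all ORFs, and on the W303 arrays all gene lists are below 0.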

How the data were processed

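The authors deposited 1 log2 ratio of treated over untreated per ORF and array for 6174 ORFs, with 0 further sample columns. The sources used here do not give background correction, normalization or probe type, and precision is limited by the small number of arrays. Per the labels, treated cells carried Cy5 in Exp 1 and Cy3 in Exp 2. ORFs were matched by locus tag to the R64 gene table, used for names and neighbours (5675 matched, 499 not). Dye-swap arrays were averaged, each pair counting as 1 replicate. The 3 pair means were fitted in limma 3.58.1 (R 4.3.3), with 1 coefficient for each strain, and moderated by empirical Bayes (1 residual and 6.64 prior degrees of freedom). It was tested on simulated data.

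Of each role group, the members with the highest and lowest tetYFH1 mean were named, then those with an unadjusted p under 0.05 in tetYFH1, the 3 largest and 3 smallest pair differences, the 2 highest and 2 lowest W303 means, and RRP5, NOP1, NOP56 and NOP58. Further genes were named after their values were seen. Members and lists were chosen with earlier results of these data known.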

Additional observations from a re-analysis of the deposited data

Results flagged for a closer look

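NOC3, which works with NOC2 in transport of large-subunit precursors, was the only one of the 58 assembly factors with all 4 tetYFH1 arrays on one side of 0 and both W303 arrays on the other. It was at 0.12 (A1), 0.03 (A2), 0.54 (B1) and 0.95 (B2) in tetYFH1, against -0.48 and -0.14 in W303. The difference between the strains was 0.72 (95% interval -0.29 to 1.72), and it did not pass the test of the difference itself (limma, adjusted p = 0.943). Pair A lay close to 0. Among the 4 tetYFH1 arrays, 1 array stood apart from the other 3 by Dixon's ratio at the 95% level for 5 of the 58 factors and for none of 3 group medians, while chance alone flags about 5% of such groups. UTP10, of UTP-A, was at 0.99 on A2, against 0.21 to 0.29 on the other tetYFH1 arrays. UTP9, also of UTP-A, was at 1.00 on B2, NOP7, of the large-subunit precursor, at 1.00 on B2 and NSA1, of the same precursor, at 0.57 on B2, each above its other tetYFH1 arrays. RRP8, a methyltransferase of ribosomal RNA, was at -0.17 on A1, below the others, although these lay within 0.01 of 0.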

How the results depend on the processing

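With 2 pairs of tetYFH1 and 1 of W303, the spread rests on 1 residual degree of freedom, the calls depend on which pair is kept, and signal over background is unknown. Of 276 values under alternatives, 33 moved by more than the spread between arrays or pairs (for counts, by over 1.5 times), 3 newly passed the threshold and 7 had the opposite sign to the value reported. That spread is wide, so many of the other 240 also differ in size, and some differ in sign. The 240 also hold values that a setting could not change, such as tetYFH1 values with W303 turned. Arrays entered singly, with or without a replicate block for the Exp number (which marks the dye), gave 0 members past the threshold in each contrast, as did leaving out any 1 array. Without pair A, 1 member (NOP12) passed as lower in tetYFH1, beside 1.36% of ORFs. In the difference 3 members then passed as higher, beside 0.729% of ORFs, and 1 (NOP12) as lower, beside 0.891%. Without pair B, 2 passed as higher in tetYFH1 (UTP14 and UTP30), beside 3.05% of ORFs, and 18 as lower in W303, beside 3.08%. In the difference 3 then passed as higher, beside 0.956% of ORFs. The tetYFH1 counts of both settings were thus near the share of all ORFs.

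Members at an unadjusted p under 0.05 in tetYFH1 numbered 5 as reported, beside 9.46% of ORFs. They numbered 2 with arrays centred (beside 6.84%), 2 with arrays scaled (7.87%) and 16 without pair A (16.9%). Leaving out ORFs with whole values keeps 30 of the 58 members, and 2 of those 30 were counted, beside 8.91%. Without single arrays the count lay between 1 (without B2, beside 3.37%) and 5. The 12 lower in W303, beside 1.64% of ORFs, became 19 with arrays singly (beside 3.69%), 19 with the replicate block (3.09%) and 20 with a random block (4.02%). They became 0 with W303 turned (0.988%), 19 without pair A (3.64%) and 31 without pair B (9.01%). Of the 30 members kept without whole values, 5 were lower, beside 1.56%. Without single tetYFH1 arrays the count lay between 4 (without B1, beside 0.534%) and 12 (without A1, beside 1.25%). The 11 higher in tetYFH1 than in W303 became 6 with arrays centred, 5 scaled, 20 singly, 20 with the replicate block, 24 with a random block, 7 without ORFs with whole values, 0 with W303 turned and 28 without pair A, while the share of ORFs, 3.79%, became 2.62%, 2.41%, 7.14%, 6.22%, 7.81%, 3.49%, 2.02% and 9.73%, and between 1 (without B2) and 16 without single arrays.

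The W303 median of -0.53 became 0.53 when turned, and lay between -0.66 and -0.42 without single arrays. The tetYFH1 median of the 58 factors, 0.15, was 0.08 with arrays centred, 0.04 scaled, -0.14 without pair B and between -0.05 (without B2) and 0.32 without single arrays. The UTP median in tetYFH1 was -0.14 without pair B and between 0.06 and 0.43 without single arrays, and the pair B minus pair A median between 0.24 and 0.85. UTP minus other classes in tetYFH1, 0.21, was 0.042 without pair B and between 0.14 and 0.21 without single arrays, and in W303 it was -0.53 without array 1, 0.30 without array 2, 0.04 turned and 0.01 without the exosome genes. Means without single arrays were 0.34 to 1.52 for UTP15, 0.54 to 0.87 for UTP14, 0.39 to 0.83 for UTP30, -0.88 to -0.75 for NOP1 and -1.51 to -1.43 for NOP12. UTP14 was at 0.74 and UTP30 at 0.79 without pair B, and NOP12 at -2.91 without pair A, each past the threshold, while without pair B UTP15 was at 0.19 and NOP12 at -0.02. The differences of Exp 1 minus Exp 2 correlated across pairs between -0.16 and 0.11 over all ORFs and between -0.33 and 0.37 over the 58 factors, with both signs, so the Exp number was not taken to pair samples. The cause of these shifts was not tested.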

Other observations

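Of the 58 assembly factors, 6 had a W303 mean above 0, and these were also high in tetYFH1 pair A. Those W303 means were small, 0.01 to 0.09, beside a median of 0.05 over all ORFs, and only NOP16 and UTP10 were above 0 on both W303 arrays. The 6 were RRP7, UTP30, UTP14, UTP10, RRP5 and NOP16, a mixture of processome, both-subunit and large-subunit factors, and the set was chosen after its values were seen. Their pair A median was 0.56 (0.19 to 0.79), against -0.18 (-0.58 to 0.19) for the other 52 factors, and 5 of the 6 lay above 0 on both pair A arrays, against 1 of the 52. In pair B the medians were 0.34 for the 6 and 0.44 for the 52. NOP16, a nucleolar protein of the large-subunit precursor, was at 0.28 (A1), 0.64 (A2), 0.00 (B1) and 1.00 (B2) in tetYFH1, against 0.01 and 0.01 in W303. The W303 means defined the set, and it was picked with its pair A values known, so no test was made.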
